A study of Mus musculus with 12 samples.

Results

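The sprouty, spred, dual-specificity phosphatase and PEA3-group Ets genes that FGF-ERK signalling switches on were followed in mouse gastruloids. They are 10 genes, *Spry1*, *Spry2*, *Spry4*, *Spred1*, *Spred2*, *Dusp4*, *Dusp6*, *Etv1*, *Etv4* and *Etv5*, taken by name from the 38911 genes listed, 26382 of them with at least 1 count. Gastruloids are aggregates of embryonic stem (ES) cells that form a posterior axis with mesodermal and neural progenitors in culture. They were made here from E14TG2a cells, 1 mouse ES line kept in 2iLIF, at 200 cells per gastruloid, and were exposed to the Wnt pathway activator CHIR99021 before the treatments. Between day 3 and day 4, when they were harvested, 1 group received 1X glucose (21.25 mM, the control), 1 received no glucose (0X), 1 received 3X glucose (63.75 mM) and 1 received 5 mM 2-deoxy-D-glucose (2-DG), a glucose analog that blocks hexokinase, in 1X glucose. Per the paper, 2-DG can also take the place of mannose in protein glycosylation. Each group held 3 libraries of polyA RNA from pooled gastruloids, 1 each from ES cell passages 13, 15 and 16. The replicates were therefore passages of a single line, and p-values measure the spread between such cultures.

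FGF ligands bind receptor tyrosine kinases and start the Ras-ERK cascade, in which Raf, MEK and ERK kinases phosphorylate one another in turn. ERK then induces genes that dampen the cascade, among them Sprouty and Spred proteins, which act on Ras and Raf, and the dual-specificity phosphatases, which remove phosphate from ERK. It also induces the PEA3-group Ets factors, which carry FGF signals to the genome in the mesoderm and tail bud of the embryo. The transcript levels of these genes are widely used as a readout of FGF-ERK activity, although the RNA does not measure ERK phosphorylation itself.

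Depth ranged from 31902471 to 45956080 counts per library, and the 1X libraries held 38439471 to 45956080. Levels are given as CPM (counts scaled to library size, with TMM factors) of the summed RefSeq transcripts of a gene. All 10 genes passed the filter on low counts, as did 16966 genes in all. In RNA of whole gastruloids, fewer cells of a type that expresses a gene and less of its RNA per cell cannot be told apart.

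Per kilobase of annotated exon, *Dusp6* had the highest mean in 1X glucose, at 76.2 ± 1.77 CPM per kb (SD, n = 3), followed by *Etv4* at 61.7 ± 15.3 CPM per kb, and these 2 did not differ beyond the spread of *Etv4*. *Spry2* (53.0 ± 1.18 CPM per kb) and *Dusp4* (50.9 ± 6.37 CPM per kb) did not differ beyond their spread, nor did *Etv4* from either of them. *Etv5* (32.5 ± 3.73 CPM per kb) and *Spred2* (30.1 ± 6.16 CPM per kb) lay next and also within their spread of each other. The order ended with *Spred1* at 18.5 ± 2.16, *Spry4* at 12.4 ± 2.00, *Spry1* at 6.51 ± 0.635 and *Etv1* at 2.09 ± 0.187 CPM per kb. These lengths are unions of all annotated exons, so a gene with many long exons, such as *Etv1*, is set low.

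Under 2-DG, 4 of the 10 genes fell against 1X glucose and none rose: *Spry4*, *Etv4*, *Etv5* and *Dusp6*. Of all 16966 genes tested, 8.51% were called lower and 17.6% were called in either direction. The other 6 genes had fitted values below 0 without passing the test, and the median log2 fold change over the 10 was -0.19, beside 0.00 over all genes. Calls are from edgeR's quasi-likelihood test with Benjamini-Hochberg adjustment over all genes, at a threshold of 0.05.

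**Figure D1:**
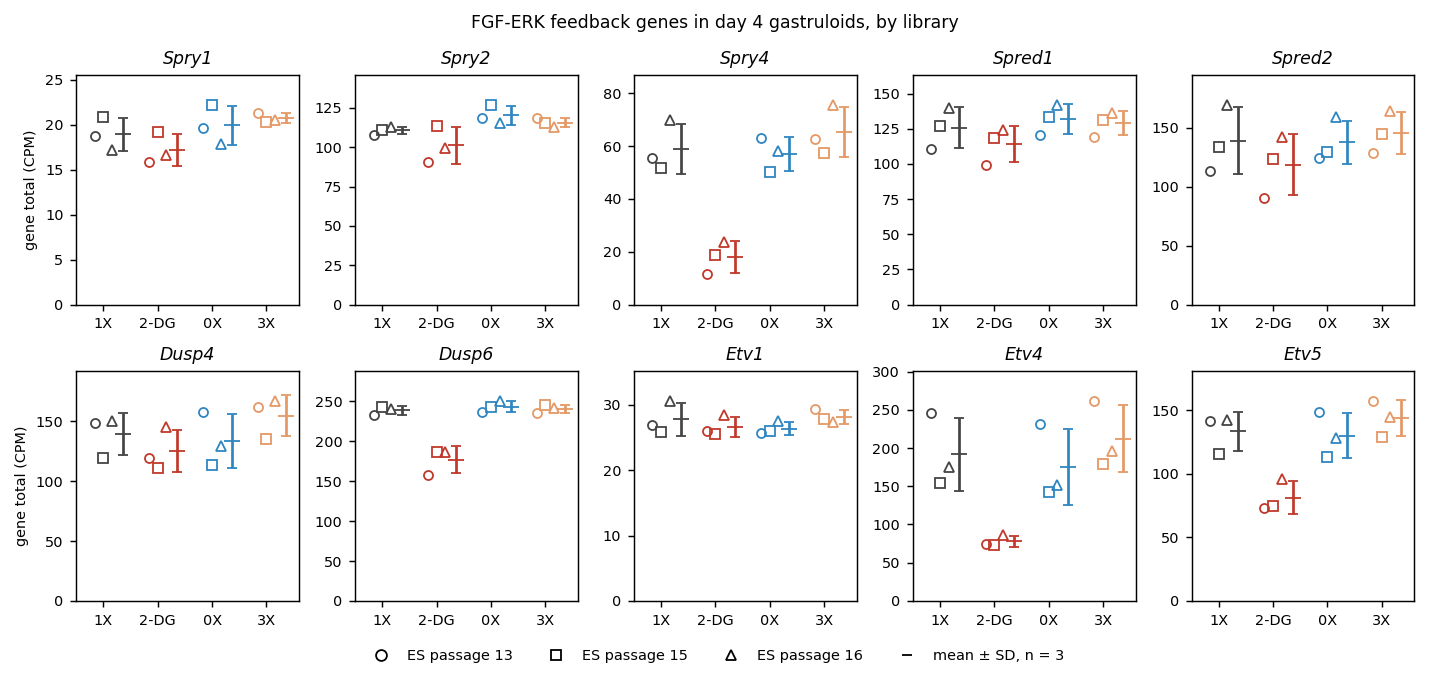
Gene totals in CPM (vertical axis, from 0) of the 10 genes in each library, by treatment (horizontal axis), with a symbol for each ES cell passage and the mean ± SD of 3 libraries beside them. The 2-DG libraries of Spry4 sit between 11.5 and 23.9 CPM, below the 50.2 to 75.8 CPM of the other 9 libraries, whereas those of Etv1 sit among the other groups.

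Of the Sprouty genes, which inhibit the Ras-ERK cascade downstream of receptor tyrosine kinases, *Spry4* moved the furthest of all 10 genes. *Spry4* had 55.4, 51.9 and 69.9 CPM in the 1X libraries of passages 13, 15 and 16, and 11.5, 18.6 and 23.9 CPM in the 2-DG libraries. All 3 2-DG libraries lay below all 3 1X libraries, and the gap between the groups was wider than the range of either. The level in 2-DG was 30.5% of that in 1X, a log2 fold change of -1.71 ± 0.23 (SE, n = 3 against 3, edgeR adjusted p = 0.000997).

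*Spry2* and *Spry1* were not called. *Spry2* had 108.0, 111.1 and 112.9 CPM in 1X and 90.7, 113.8 and 99.3 CPM in 2-DG, so the 2-DG library of passage 15 was above every 1X library while the other 2 were below them. Its log2 fold change was -0.13 (95% interval -0.29 to 0.03, edgeR adjusted p = 0.262), and without the 2-DG library of passage 15 it was -0.22 and called (adjusted p = 0.0429). *Spry1*, the least abundant of the 3, had 18.8, 20.8 and 17.2 CPM in 1X and 15.8, 19.2 and 16.6 CPM in 2-DG. These groups overlapped, although the value was lower in each of the 3 passages, and the log2 fold change was -0.14 (95% interval -0.37 to 0.10, adjusted p = 0.431).

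The transcripts of the Spred proteins, relatives of Sprouty that recruit the Ras inactivator neurofibromin, were lower in 2-DG by less than the spread between libraries. *Spred1* had 110.4, 127.3 and 139.6 CPM in 1X and 99.5, 118.5 and 123.7 CPM in 2-DG. *Spred2* had 113.6, 133.6 and 169.8 CPM in 1X and 90.7, 123.5 and 141.9 CPM in 2-DG. For both genes the groups overlapped, while the 2-DG library was the lower one in each of the 3 passages. Neither was called without a term for the passage, at -0.14 ± 0.10 for *Spred1* (adjusted p = 0.395) and -0.23 ± 0.18 for *Spred2* (adjusted p = 0.444). In the fit that blocks on ES cell passage both were called lower, at edgeR adjusted p = 0.00688 and 0.0149. That fit called 6 of the 10 genes in place of 4, and 41.3% of all genes in place of 17.6%.

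Of the phosphatases, *Dusp6*, the cytoplasmic ERK phosphatase, fell and *Dusp4*, a nuclear one, was not called. *Dusp6* had 232.3, 242.8 and 240.7 CPM in the 1X libraries and 157.5, 185.9 and 187.1 CPM in the 2-DG libraries. The 2 groups did not overlap, and in 1X the 3 libraries lay closer together than those of most of the 10 genes. The level in 2-DG was 74.1% of that in 1X, a log2 fold change of -0.43 ± 0.06 (edgeR adjusted p = 0.00142). *Dusp4* had 148.6, 119.3 and 150.3 CPM in 1X and 119.7, 110.7 and 145.1 CPM in 2-DG. Its groups overlapped, and its log2 fold change was -0.16 (95% interval -0.47 to 0.16, adjusted p = 0.518).

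All 3 PEA3-group factors were measured, and *Etv4* and *Etv5* fell while *Etv1* was not called. *Etv4* had 245.3, 154.7 and 174.9 CPM in 1X and 74.8, 73.5 and 86.3 CPM in 2-DG. The 1X libraries were spread over a wide range with passage 13 on top, yet none came down to the 2-DG libraries, which lay close together. The level was 40.8% of that in 1X, a log2 fold change of -1.29 ± 0.22 (edgeR adjusted p = 0.0037). *Etv5* had 141.9, 115.8 and 142.8 CPM in 1X and 73.0, 75.0 and 96.3 CPM in 2-DG. These groups did not overlap either, and the level was 61.0% of that in 1X (log2 fold change -0.71 ± 0.14, adjusted p = 0.00589). *Etv1* had 26.9, 25.9 and 30.6 CPM in 1X and 26.0, 25.6 and 28.4 CPM in 2-DG. Its groups overlapped almost entirely, with a log2 fold change of -0.06 (95% interval -0.23 to 0.11, adjusted p = 0.641).

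**Figure D2:**
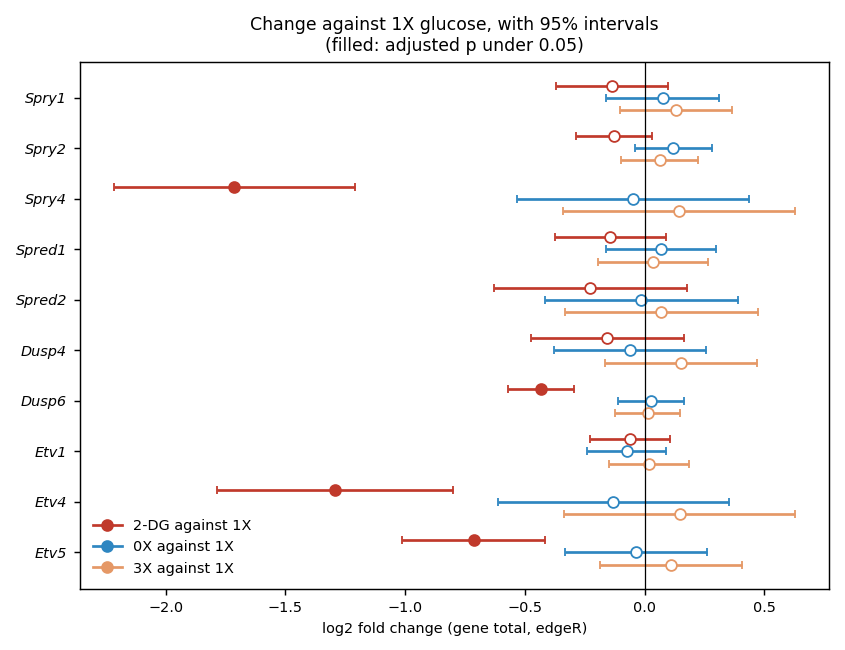
Fitted log2 fold change of each gene total against 1X glucose (horizontal axis) with its 95% interval, for 2-DG, 0X and 3X glucose, with filled points for an edgeR adjusted p under 0.05. Filled points appear in 2-DG alone, for Spry4 (-1.71), Etv4 (-1.29), Etv5 (-0.71) and Dusp6 (-0.43), and each 0X or 3X interval crosses 0.

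The 4 genes that fell were also the 4 of the 10 whose 3 2-DG libraries lay wholly below the 3 1X libraries, as 17.2% of all genes tested did. Comparing libraries of the same passage, 9 of the 10 genes were lower in 2-DG in all 3 passages, beside 30.7% of all genes tested. The exception was *Spry2*, with a log2 ratio of 0.03 at passage 15. The fall differed in size between passages. *Spry4* had log2 ratios of -2.26, -1.48 and -1.55 at passages 13, 15 and 16, *Etv4* had -1.71, -1.07 and -1.02, *Etv5* had -0.96, -0.63 and -0.57, and *Dusp6* had -0.56, -0.39 and -0.36. In each of these 4 genes the lowest ratio was that of passage 13, as in 8 of the 10 genes, 42.7% of the 1443 genes called lower and 31.2% of all genes tested. The genes share these libraries and are not replicates of a passage, and the difference between passages was not tested. Without the 2-DG library of passage 13 the 4 genes were still called, at -1.48 for *Spry4*, -1.27 for *Etv4*, -0.64 for *Etv5* and -0.36 for *Dusp6* (edgeR adjusted p from 0.00134 to 0.0267).

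**Figure D3:**
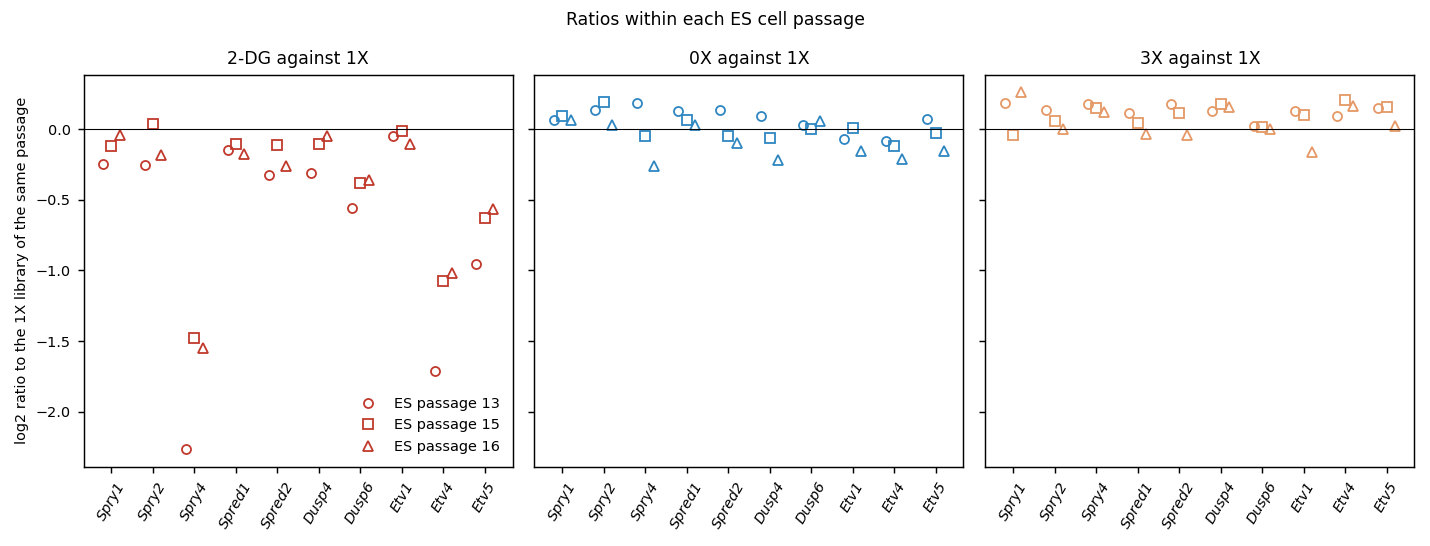
Log2 ratio of each gene total to the 1X library of the same ES cell passage (vertical axis) for 2-DG, 0X and 3X glucose, with a symbol for each passage. In 2-DG the passage 13 ratio of Spry4 is -2.26 beside -1.48 and -1.55. Of 30 ratios each, 16 lie above 0 in 0X and 26 in 3X. The genes share the same libraries, so these are not 30 separate observations, and none was called in 0X or 3X. Over all genes tested, 49.4% of fitted values lay below 0 in 0X and 48.6% in 3X.

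Whether the amount of glucose itself moved these genes was asked with 0X and 3X glucose. None of the 10 genes was called in 0X or 3X against 1X by edgeR or DESeq2, and none had an unadjusted p under 0.05 by edgeR. Over all genes, 0.0118% were called by edgeR in 0X (2 genes) and none in 3X, with 306 and 178 genes at an unadjusted p under 0.05 and 12 and 2 called by DESeq2. In 0X the log2 fold changes of the 10 genes lay between -0.13 (*Etv4*) and 0.12 (*Spry2*), and no 95% interval went below -0.61 or above 0.44. In 3X they lay between 0.01 (*Dusp6*) and 0.15 (*Dusp4*), and no interval went below -0.34 or above 0.63.

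*Dusp6* was the most even of the 10 genes across the 9 libraries of the glucose groups, its highest being 1.08 times its lowest, with 236.4, 242.3 and 250.4 CPM in 0X and 235.3, 245.3 and 241.2 CPM in 3X, beside its 232.3 to 242.8 CPM in 1X. *Spry4* had 63.0, 50.2 and 58.1 CPM in 0X and 62.7, 57.4 and 75.8 CPM in 3X, and these groups overlapped with 1X. *Etv4* had 231.8, 142.6 and 151.1 CPM in 0X and 261.6, 178.7 and 196.1 CPM in 3X, with passage 13 highest in both, as in 1X. *Spry2* was the 1 gene whose libraries did not overlap between the glucose groups: 118.4, 127.2 and 115.3 CPM in 0X and 118.5, 115.3 and 113.2 CPM in 3X were all above 112.9 CPM, its highest 1X library. Of all genes tested, 2.69% were wholly higher in 0X and 2.09% in 3X, and *Spry2* passed the test in neither (log2 fold change 0.12 and 0.06, edgeR adjusted p = 1 in both). In 3X the fitted values of all 10 genes were above 0 and 6 were above their 1X library in all 3 passages (17.3% of all genes), and 5 of the 10 turned below 0 when a library or the filter was left out. The block on passage called none of them (lowest adjusted p = 0.905).

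When 2-DG was set against 0X, which asks whether the inhibitor differed from the absence of glucose, 5 of the 10 genes were lower: *Spry4* (log2 fold change -1.66 ± 0.23, edgeR adjusted p = 0.00104), *Etv4* (-1.16 ± 0.22, adjusted p = 0.00536), *Etv5* (-0.68 ± 0.14, adjusted p = 0.00668), *Dusp6* (-0.46 ± 0.06, adjusted p = 0.000932) and *Spry2* (-0.25 ± 0.07, adjusted p = 0.0372). Of all genes, 9.04% were called lower in this comparison and 18.9% in either direction. It shares its 2-DG libraries with the comparison against 1X. The 3 2-DG libraries lay wholly below the 3 0X libraries for the same 5 genes, beside 18.6% of all genes. The call of *Spry2* was lost when any library of these groups except the 2-DG one of passage 15 was left out (adjusted p from 0.0546 to 0.132). Blocking on passage added *Spred1* (adjusted p = 0.00058) and *Spred2* (adjusted p = 0.0158), giving 7 genes, beside 43.1% of all genes. In 3X against 0X none of the 10 was called by edgeR or DESeq2 and none had an unadjusted p under 0.05 by edgeR, beside 0.0118% of all genes called. In 2-DG against 0X, *Etv1* (log2 fold change 0.01, 95% interval -0.15 to 0.18) and *Dusp4* (-0.10, -0.41 to 0.22) were the nearest to 0.

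Passages 13, 15 and 16 were each present in all 4 groups, so the levels were also compared between passages with the treatment as a term. Of the 10 genes 5 differed between passages, beside 46.2% of all genes, so the share is close to that of the transcriptome. *Spred1* (edgeR adjusted p = 0.000143) and *Spred2* (adjusted p = 0.000214) were lowest at passage 13 and highest at passage 16 in each of the 4 groups, and *Spred2* at passage 16 was 0.48 higher on the log2 scale than at passage 13. *Dusp4* was lowest at passage 15 in all 4 groups, at 119.8 ± 10.8 CPM (SD over the 4 groups) beside 147.2 ± 19.2 at passage 13 and 147.9 ± 15.7 at passage 16 (adjusted p = 0.00525). *Etv4* was also lowest at passage 15 in all 4 groups, and highest at passage 13 in 3 of them but not in 2-DG, with log2 differences from passage 13 of -0.51 at passage 15 and -0.35 at passage 16 (adjusted p = 0.00648). *Etv5* differed with adjusted p = 0.0286 and was called in 8 of 17 alternative fits. *Dusp6*, *Spry4*, *Spry1*, *Spry2* and *Etv1* were not called, with adjusted p from 0.0628 to 0.206, although *Dusp6* was lowest at passage 13 in all 4 groups. The 1X libraries of *Etv4* thus differed more from passage to passage (245.3 against 154.7 CPM) than the 1X and 0X means did (191.7 ± 47.6 and 175.2 ± 49.3 CPM).

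The deposited counts are estimates per transcript, which the authors made with StringTie by dividing reads between overlapping transcripts. *Spry4*, *Dusp4* and *Dusp6* have 1 transcript each, and the other 7 genes have 2 to 11. Of 38 transcripts 31 passed the filter, and 2 were called in 2-DG against 1X by edgeR: those of *Spry4* (NM_011898.3, -1.73 ± 0.26, adjusted p = 0.0352) and *Dusp6* (NM_026268.3, -0.44 ± 0.06, adjusted p = 0.032). Over all 46254 transcripts tested 0.288% were called. DESeq2 called 7 of the transcripts of the 10 genes, the same 2 with 3 of *Etv4* and 2 of *Etv1*, beside 7.13% of all.

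*Etv4* was divided over 10 transcripts, none of which held more than 28.5% of the gene in any library. All 10 had fitted values below 0 in 2-DG, from -3.40 to -0.58, and 6 had an unadjusted p under 0.05, but none was called by edgeR (adjusted p from 0.354 to 0.838), whereas the gene total was. These transcripts divide the reads of the same gene, so their values are not separate observations of its fall. The share of all transcripts with an unadjusted p under 0.05 is not given here. The curated NM_008815.3 had 706, 1441 and 1203 counts in 1X and 82, 189 and 0 in 2-DG (-3.40 ± 1.36), and NM_001316365.1 had 728, 1066 and 1070 against 67, 217 and 499 (-1.67 ± 0.60). The third curated one, NM_001316366.1, had 872, 576 and 1016 counts against 83, 181 and 425 (-1.60 ± 0.51). The curated transcripts together held 20.6%, 52.4% and 40.6% of *Etv4* in 1X and 9.08%, 21.8% and 28.5% in 2-DG. These ranges overlapped, although within each passage the share was lower in 2-DG, and the difference was not tested. Of the predicted ones, XM_006532459.3 (-1.34 ± 0.45), XM_006532458.3 (-1.07 ± 0.43), XM_006532461.3 (-0.85 ± 0.51) and XM_006532462.4 (-0.58 ± 0.46) each held at least 7.63% of the gene in every library. The scarcer XM_030245655.1 was at -2.61 ± 1.05, XM_006532460.3 at -1.42 ± 0.92 and XM_030245656.1 at -1.42 ± 0.91.

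*Etv1* showed the opposite picture, with a gene total that stayed between 25.6 and 30.6 CPM in all 12 libraries and transcripts that came and went. Of its 11 transcripts 7 had a count and 4 passed the filter. The main one, NM_007960.5, had 438, 826 and 868 counts in 1X and 686, 481 and 827 in 2-DG (0.13 ± 0.50), and its share of the gene ran from 16.7% to 84.0% over the 12 libraries. XM_006514968.4 had 772, 0 and 28 counts in 1X and 0, 248 and 238 in 2-DG (-0.44 ± 2.07). XM_006514969.4 had 16, 157 and 32 counts in 1X and 0 in all 3 2-DG libraries, which is at least 20.7-fold lower against a floor of 3 counts per library, and at least 6.27-fold lower without the 1X library of passage 15. It was also at 0 in 2 of the 3 0X libraries and in 1 3X library, edgeR did not call it (adjusted p = 0.426), and DESeq2 did (adjusted p = 0.0295). In the other direction, NM_001347379.1 was at 0 in all 3 1X libraries and in 2 of the 2-DG libraries and had 209 counts in that of passage 15. It was at 0 in all 3 0X libraries too, and had 95, 468 and 10 counts in 3X at passages 13, 15 and 16. DESeq2 called this transcript higher (adjusted p = 6.46e-06) on the counts of that 1 2-DG library, and edgeR did not (adjusted p = 0.576). Neither transcript's zeros were matched by a change of the *Etv1* total, which was between 25.6 and 28.4 CPM in 2-DG.

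Shares also moved in single libraries without a change of the gene total. In *Etv5*, NM_001358428.1 held 92.3% to 97.3% of the counts in 11 libraries and 0.996% in the 2-DG library of passage 16, where NM_023794.2 had 3580 counts. The total of that library, 96.3 CPM, was the highest of the 3 2-DG libraries, and the most abundant transcript taken alone was at -1.41 and not called (edgeR adjusted p = 0.537). In *Spred2*, NM_033523.4 held 46.8% to 51.5% in every library, while most of the rest passed from XM_006514456.4 to XM_006514457.4 in the 1X library of passage 15 and the 0X library of passage 16. *Spry1* was split between 4 transcripts, of which NM_001305440.1 held from 8.32% to 71.2%. *Spry2* (NM_011897.3, 84.6% to 88.0%) and *Spred1* (NM_033524.3, 99.3% to 99.7%) kept 1 main transcript. With each gene represented by its most abundant transcript alone, 2 of the 10 genes were called in 2-DG against 1X, *Spry4* and *Dusp6*, in place of 4. The share of all genes called with this setting is not given here. When all transcripts were tested 0.288% were called, beside 17.6% of gene totals, so the drop cannot be read as particular to *Etv4* and *Etv5*.

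**Figure D4:**
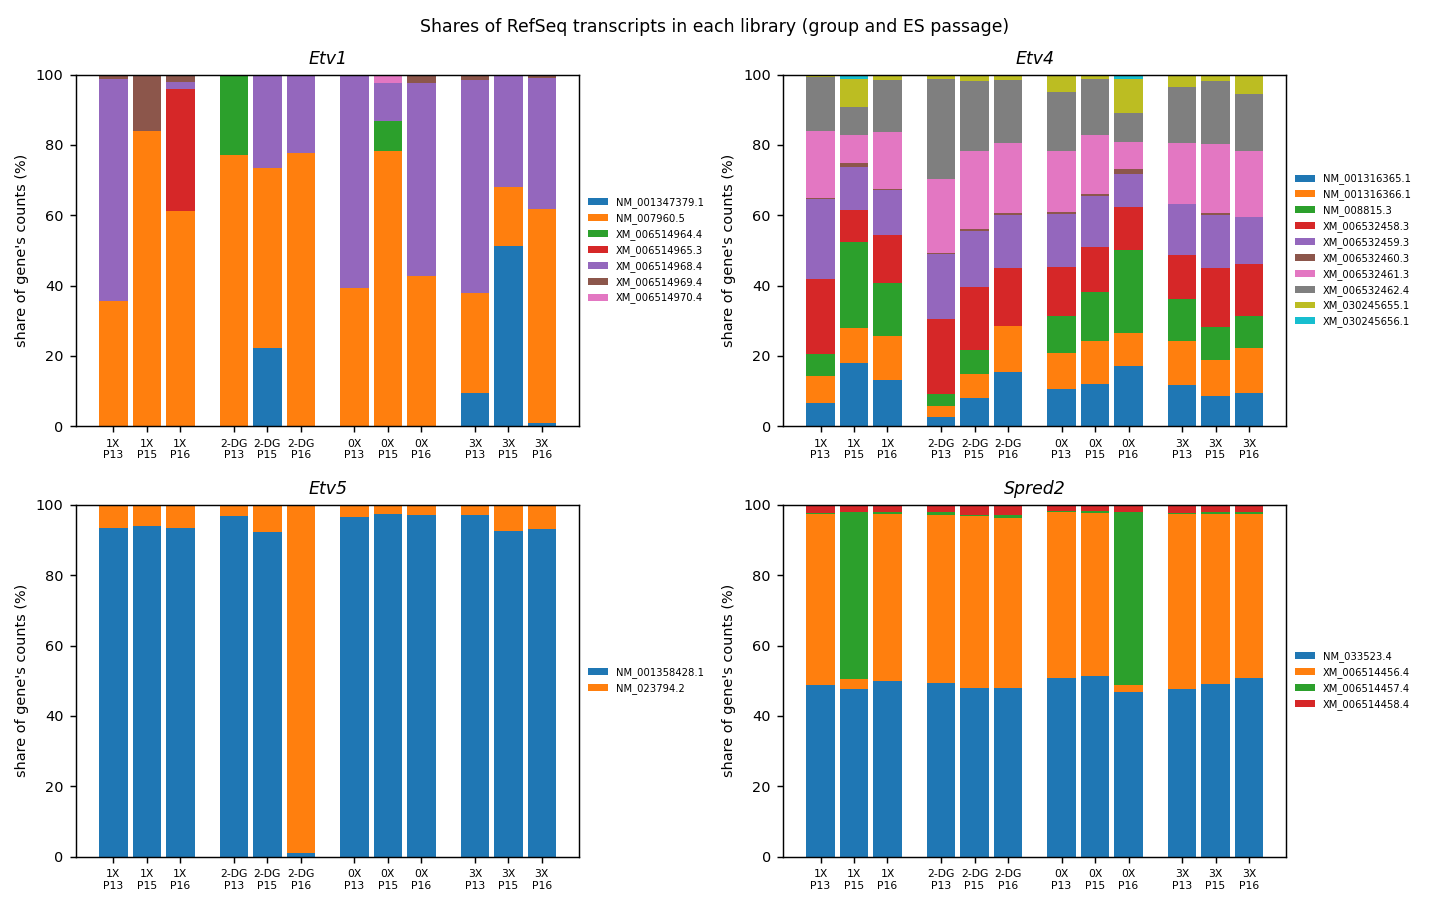
Share of the gene's counts (vertical axis, percent) held by each RefSeq transcript in each of the 12 libraries, for Etv1, Etv4, Etv5 and Spred2. In Etv5, NM_001358428.1 holds 0.996% of the gene's counts in the 2-DG library of passage 16 and 92.3% or more in the other 11 libraries. In Etv4 no transcript exceeds 28.5%.

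RefSeq windows of 250 bases before the transcription start (GRCm38.p6) were searched, on both strands, for letters that Ets factors, AP-1, CREB and TCF factors are known to bind. They were searched for 7 of the 10 genes, 9 windows in all, and among the 4 genes that fell for *Dusp6* and *Etv5*. *Spry4* was left out of the search, and no window was listed for *Dusp4* and *Etv4*. The PEA3 motif AGGAAG was in 3 of 9 windows (of *Dusp6*, *Spred2* and *Etv1*), beside 29.5% of 32851 windows of the same length. The Ets motif CCGGAA was in none of the 9 (12% of all windows), nor were the AP-1 motif TGANTCA (6.75%), the CRE motif TGACGTCA (1.55%) or the TCF motif CTTTGATC (0.801%). CCGGAA and AGGAAG share the letters GGAA, but different letters precede it, so the same GGAA cannot count for both. The windows of *Dusp6* and of the downstream start of *Etv5* are shown because both genes fell in 2-DG. That of *Dusp6* lies on the plus strand at chr10:99262981-99263230 and that of *Etv5* on the minus strand at chr16:22438369-22438618, and capitals mark AGGAAG on either strand, here its reverse complement 210 bases before the *Dusp6* start.
Dusp6: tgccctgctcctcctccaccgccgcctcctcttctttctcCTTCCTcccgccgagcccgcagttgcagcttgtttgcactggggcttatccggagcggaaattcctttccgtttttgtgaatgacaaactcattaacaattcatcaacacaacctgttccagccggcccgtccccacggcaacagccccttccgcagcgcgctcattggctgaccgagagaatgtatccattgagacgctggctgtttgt
Etv5: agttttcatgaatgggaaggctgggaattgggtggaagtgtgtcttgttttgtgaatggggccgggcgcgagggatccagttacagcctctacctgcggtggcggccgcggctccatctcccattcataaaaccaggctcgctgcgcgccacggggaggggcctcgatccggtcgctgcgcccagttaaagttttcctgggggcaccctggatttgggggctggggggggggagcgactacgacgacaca

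The same question was put to the rest of the pathway with 6 lists of 74 further genes, of which 71 were tested. In 2-DG against 1X 10 of them were called, 7 lower and 3 higher, beside 17.6% of all genes, and their median log2 fold change was 0.01. None was called in 0X or 3X against 1X by edgeR. Blocking on passage, 27 were called in 2-DG, 16 lower and 11 higher, beside 41.3% of all genes.

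Of 9 FGF ligands 1 fell, *Fgf17*, a ligand of the tail bud and the midbrain-hindbrain boundary. The share of all genes called lower was 8.51%, and 1547 of the 16966 tested were called higher. *Fgf17* had 48.3, 20.0 and 17.8 CPM in 1X and 3.98, 4.00 and 4.90 CPM in 2-DG, without overlap (-2.74 ± 0.52, edgeR adjusted p = 0.00572). *Fgf8*, its close relative, had 110.1, 59.7 and 67.0 CPM in 1X and 86.9, 71.9 and 79.0 CPM in 2-DG, and these groups overlapped. Of 9 receptors and adaptors 1 rose, *Flrt3*, a membrane protein that binds FGF receptors, from 47.4 ± 6.89 to 63.8 ± 5.03 CPM (0.43 ± 0.12, adjusted p = 0.0372). With the passage as a block, 2 ligands were called lower and 1 higher in 2-DG against 1X. That fit called 1 receptor or adaptor lower and 1 higher, beside 41.3% of all genes called. *Fgfrl1*, a receptor without a kinase domain, was called lower in 2-DG against 0X (-0.36 ± 0.11, adjusted p = 0.0358) but not against 1X (-0.25 ± 0.11, adjusted p = 0.135).

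Of 21 genes of the Ras-ERK cascade 2 rose and none fell: *Rps6ka3*, an ERK-activated kinase (145.0 ± 10.6 to 194.2 ± 18.4 CPM, 0.42 ± 0.08, edgeR adjusted p = 0.00765), and *Araf*, a Raf kinase (71.6 ± 2.84 to 86.3 ± 4.6 CPM, 0.27 ± 0.06, adjusted p = 0.0107). The median over the 21 was 0.01. Among all 16966 genes tested, 8.51% were called lower and 1547 were called higher. Blocking on passage, 6 of the 21 were called, 2 lower and 4 higher, beside 41.3% of all genes. Of 10 other inhibitors of the pathway 1 fell, *Il17rd* (also called Sef), a membrane antagonist of FGF signalling, from 375.1, 238.5 and 269.0 CPM to 137.6, 133.7 and 162.5 CPM (-1.02 ± 0.23, adjusted p = 0.013). Its 1X libraries were highest at passage 13 and its 2-DG libraries close together, the order also seen in *Etv4*. The passage block called 3 of the 10 inhibitors lower and 2 higher.

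Of 12 other Ets factors 3 fell and none rose, beside 8.51% of all genes called lower. The passage block called 5 lower and 3 higher, beside 41.3% of all genes called. *Ets2*, an ERK substrate, had 198.0, 151.9 and 145.9 CPM in 1X and 61.8, 81.6 and 81.3 CPM in 2-DG (-1.14 ± 0.19, edgeR adjusted p = 0.0032). *Elk3*, a ternary complex factor, fell from 11.01 ± 0.311 to 6.01 ± 1.03 CPM (-0.87 ± 0.12, adjusted p = 0.00133). *Etv2*, a factor of blood vessel and blood progenitors, fell from 1.40 ± 0.243 to 0.487 ± 0.086 CPM (-1.52 ± 0.40, adjusted p = 0.0254). Of 13 immediate early genes, which ERK induces within minutes, 10 were tested and 2 fell: *Egr1* (5.13 ± 1.01 to 0.881 ± 0.196 CPM, -2.54 ± 0.43, adjusted p = 0.00322) and *Srf* (97.7 ± 3.31 to 78.8 ± 4.57 CPM, -0.31 ± 0.05, adjusted p = 0.00203). The passage block called 3 of these 10, all lower. For this list too the shares over all genes were 8.51% lower, and 41.3% called with the block.

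**Figure D5:**
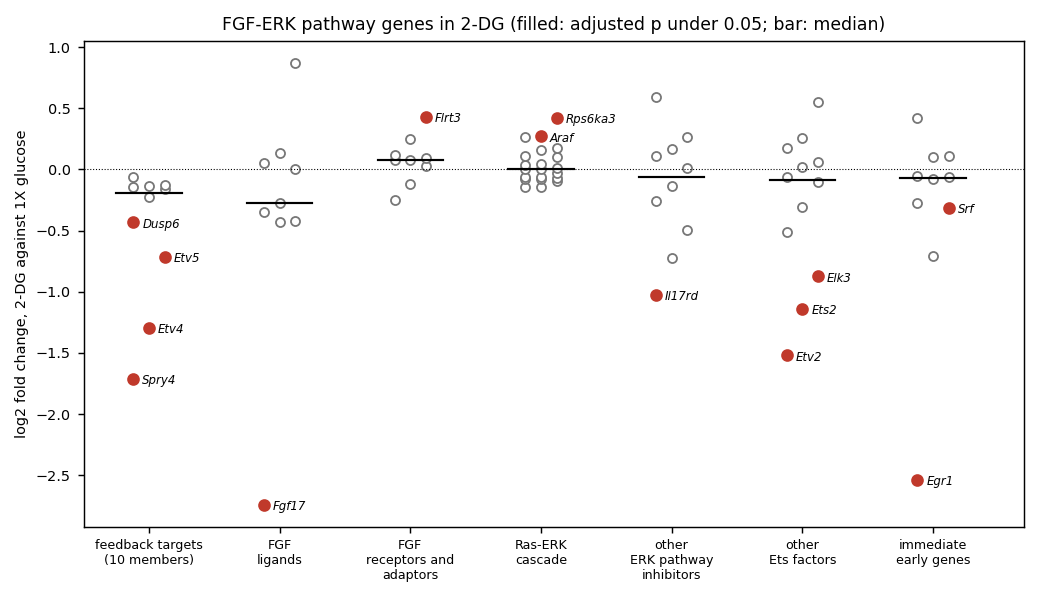
Fitted log2 fold change in 2-DG against 1X glucose (vertical axis) of the 10 genes and of 6 lists of pathway genes (horizontal axis), with filled, named points for an edgeR adjusted p under 0.05 and a bar at the median of each list. The called points run from Fgf17 at -2.74 to Flrt3 at 0.43, and the Ras-ERK cascade genes lie close to 0 with a median of 0.01.

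Genes of like pattern were sought among 9777 genes with a mean of at least 10 CPM, by Pearson's r over 9 log2 ratios to the same-passage 1X library. The ratios share the 1X libraries, and the 3 from 2-DG carry most of the variation, so r is given as a description. Among the 10 genes themselves *Spry4* was nearest to *Etv5* (r = 0.992), *Etv4* (0.989) and *Dusp6* (0.980), and farthest from *Etv1* (0.221). Outside them, *Spry4* was most like *Epha2*, a receptor tyrosine kinase (0.99), *Dck*, deoxycytidine kinase (0.989), *Zswim4* (0.989) and the posterior Hox genes *Hoxc8* (0.989) and *Hoxc9* (0.989). *Etv4* was most like *Wnt3a*, a Wnt ligand of the primitive streak and tail bud (0.994), *Il17rd* (0.994), *Hoxc9* (0.992), *Zbtb46* (0.991) and *Hoxc8* (0.991). Genes most like *Dusp6* included *Nfam1* (0.994), *Eogt* (0.991), *Dixdc1* (0.991) and *Aif1l* (0.989). All of these were called lower in 2-DG except *Hoxc8* (-2.10 ± 0.67, edgeR adjusted p = 0.0534), and their log2 fold changes ran from -2.73 (*Nfam1*) to -0.33 (*Dck*). They were picked for following genes that fell in the same 2-DG libraries, so these calls add no separate evidence.

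Markers of cell states moved in the same libraries. Of 10 markers of primitive streak and early mesoderm 4 fell in 2-DG against 1X by edgeR (*Mixl1* at -3.89, *Wnt3a* at -2.72, *Evx1* at -2.59 and *T* at -1.57 on the log2 scale) and none rose. The list shares *Fgf8* with the FGF ligands. The summed level of the 10 was 667 to 1106 CPM in 1X, 376 to 511 in 2-DG, 592 to 1117 in 0X and 734 to 1133 in 3X. Of 8 neural markers 7 were tested and 3 rose (*Irx3* at 1.90, *Sox1* at 1.84 and *Pax6* at 1.29), with a summed level of 184 to 348 CPM in 1X, 231 to 445 in 2-DG, 155 to 318 in 0X and 203 to 358 in 3X. Of 7 pluripotency markers 6 were tested and 1 rose (*Tfcp2l1* at 1.05), with 37.0 to 51.9 CPM in 1X, 58.4 to 72.3 in 2-DG, 30.0 to 41.6 in 0X and 36.6 to 54.1 in 3X. The lowest fitted value of a neural marker was -0.46. Among all 16966 genes tested, 8.51% were called lower and 1547 genes higher. Blocking on passage, 7 streak markers were called lower, 5 neural markers higher and 1 lower, and 4 pluripotency markers higher. That fit called 41.3% of all genes. None of these 3 lists had a marker at 3 counts or fewer in every library. Of 5 endoderm and 7 fibroblast markers, 5 of the latter tested, none was called in 2-DG against 1X without a term for the passage. With the passage as a block, 2 endoderm markers were called lower and 2 higher, and 2 fibroblast markers lower and 1 higher. The fibroblast gene *Lum* was at 3 counts or fewer in every library. The part of these markers in the levels of the 10 genes was not tested.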

How the data were processed

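PolyA RNA of 12 libraries was analysed, 3 per treatment, grouped by the sample titles. The authors deposited estimated counts (whole numbers) of 120312 RefSeq transcripts per library. Per the methods and the submitters' processing notes reads were trimmed with Trim Galore, aligned to mm10 with HISAT2, processed with SAMtools, cleared of duplicates with Picard and counted with StringTie. Versions, annotation and parameters are not given in the sources used here. The authors' 3 tables of DESeq2 fold changes and p-values were not used.

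Transcript counts were added up per gene with the GRCm38.p6 RefSeq table. One model of the 4 groups was fitted by edgeR 4.0.16 under R 4.3.3 (filterByExpr, TMM, glmQLFit, glmQLFTest, no passage term), and two-sided p-values were adjusted over all genes. CPM and within-passage log2 ratios (prior count 2) used effective library sizes, and lengths came from GENCODE M21. The titles tie libraries to ES cell passages, and deviations from group means correlated at 0.0963 to 0.623 within a passage (18 pairs) and at most 0.191 otherwise. No more than 9.67% of values were identical between 2 libraries. On simulated data for 2-DG against 1X (16722 genes, 200 changed by 0.5 on the log2 scale) 80 were recovered. Alternatives were no filter, median-of-ratios factors, the passage block, DESeq2 1.42.0, only the groups compared, the most abundant transcript and leaving out each library. Named genes were the 10, pathway genes past the test, every tested transcript of *Etv1* and *Etv4*, and the 5 genes nearest to each of *Spry4*, *Dusp6* and *Etv4*, of which 1 is not reported here. The members and lists were chosen with earlier results of these data known. Counts without molecular identifiers carry more than counting error.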

Additional observations from a re-analysis of the deposited data

How the results depend on the processing

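Of 480 refitted log2 fold changes of the 10 genes under the alternatives (0X, 3X and 2-DG against 1X, and 2-DG against 0X, with 3X against 0X followed by its count of calls alone), 430 kept their direction and their side of the threshold, and 33 turned in sign, none of them past the threshold. No alternative called a gene among the 10 in 0X or 3X against 1X, or in 3X against 0X. The count called in 2-DG against 1X was 4 to 5 when each library was left out in turn, and 4 to 5 in 2-DG against 0X, where *Spry2* also lost its call without a filter and with only the groups compared. Blocking on the ES cell passage gave 6 and 7, and pairing by passage changed no other call among the 10. With the most abundant transcript alone the counts were 2 in 2-DG against 1X, where *Etv4* and *Etv5* lost their calls, 2 in 2-DG against 0X and 2 between passages. The share of all genes called with this setting is not given here. Between passages 2 genes were called when treatment was not a term (no replicate block), beside 5. Transcripts called in 2-DG against 1X numbered 2, 7 with DESeq2, 0 without a filter, 0 with only the groups compared, and 0 to 2 with each library left out. Without the 1X library of any passage, or the 2-DG library of passage 15, the *Spry4* and *Dusp6* transcripts lost their calls.

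Signs turned with the most abundant transcript alone for *Spry1* (0.36) and *Etv1* (0.14) in 2-DG against 1X, *Spry1* (0.78) in 2-DG against 0X, *Spry1* (-0.41) and *Etv5* (0.014) in 0X, and *Etv1* (-0.76) in 3X, and without the filter for *Dusp6* in 3X (-0.0048). Leaving out each library moved *Etv1* between -0.12 and 0.011 in 2-DG against 1X, and, against 0X, *Dusp4* between -0.21 and 0.045 and *Etv1* between -0.026 and 0.046. In 0X against 1X it moved *Spry1* between -0.015 and 0.14, *Spry4* between -0.14 and 0.086, *Spred1* between -0.017 and 0.15, *Spred2* between -0.14 and 0.15, *Dusp4* between -0.21 and 0.038, *Etv4* between -0.39 and 0.087 and *Etv5* between -0.15 and 0.0497. In 3X it moved *Spred1* between -0.048 and 0.12, *Spred2* between -0.056 and 0.24, *Dusp6* between -0.0067 and 0.024, *Etv1* between -0.038 and 0.091 and *Etv4* between -0.038 and 0.36. The cause of these turns was not tested. On simulated counts for 2-DG against 1X, 80 of 200 genes changed by 0.5 on the log2 scale were recovered, 169 at 1.0 and 197 at 2.0. In that setting many changes of 0.5 were not called. The simulation changed 200 genes and had no passage effect, whereas 2990 genes were called in the data. The adjusted threshold therefore differs, and these counts do not give the recovery in the data.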
